A study of Mus musculus with 3 samples.

Results

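The 390 sites described here are HDAC3 peaks of wild-type (WT) mouse liver that share at least 1 bp with a peak listed for NS-DADm liver. They were selected on the deposited peak positions of both livers, out of 5799 WT peaks (6.73%, exact Clopper-Pearson 95% interval 6.09 to 7.40%). From the other side they correspond to 387 of 600 NS-DADm peaks. HDAC3 binding was measured by chromatin immunoprecipitation and sequencing in livers of male C57Bl/6 mice aged 10 to 12 weeks, taken 10 hours after lights on (zeitgeber time 10) under a regular light and dark cycle on normal chow. Each genotype is 1 library, and the labels give DNA of 4 to 5 mice for it. For WT this count is not split here between the merged samples named next. The NS-DADm library is named only by its genotype in the labels, and the WT library merges 2 control samples, 1 from plain WT liver and 1 from HDAC3f/f liver given AAV-GFP. An input sample without antibody was not analysed here.

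HDAC3 is a histone deacetylase that works inside the NCoR and SMRT corepressor complexes. These complexes are brought to DNA by nuclear receptors that silence transcription. In liver the circadian repressors REV-ERB alpha and beta recruit NCoR and HDAC3 in a daily rhythm, and loss of hepatic HDAC3 is known for derepressing lipid synthesis genes. The deacetylase-activating domain (DAD) of NCoR and SMRT binds HDAC3 and switches on its enzyme activity. As general knowledge of the mouse line, and not from the labels, NS-DADm animals carry mutations in this domain of both corepressors.

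Every value is the authors' own value of a peak, taken as RPM (reads scaled to library size) and rounded to 0.1. All peaks are 200 bp wide. Sequencing depth is unknown, so no value has a counting error of its own. With 1 library per genotype there is no spread between animals, and no difference between the livers was tested. Genotype cannot be told apart from the library or from the merging of the WT samples. The positions of both lists chose the sites, and a peak had to be high enough to be listed, so their values are given as a description. Intervals on shares and medians come from binomial counts or ranks over sites, which are not replicates, and cover counting over sites alone. Positions are on mm8 and counted from 1. No mm8 annotation was at hand, so genes, exons and sequences under the sites were not analysed here, and peak lists hold no expression values against which the liver label could be checked.

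The sites listed in both livers mostly carried less HDAC3 signal in NS-DADm liver, and the NS-DADm values covered a narrower range than the WT values. WT values ran from 1.0 to 7.1 RPM with a median of 2.2 RPM (interquartile range 1.6 to 2.9). NS-DADm values at the same sites ran from 1.1 to 3.9 RPM with a median of 1.3 RPM (1.2 to 1.4). The share of the WT value that was kept, the NS-DADm value as a percent of the WT value at the peak with the nearest centre, had a median of 63.2% (95% interval by ranks 60.0 to 65.2%). The value was lower in NS-DADm at 350 of the 390 sites, equal at 16 and higher at 24. At 124 sites, or 31.8%, the NS-DADm value was at or below 50% of WT. No site was at 200% or more, since the highest kept share was 150%. The rule used positions, but a peak needed a high enough value in each liver to be listed, so nothing is read from these counts.

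**Figure D1:**
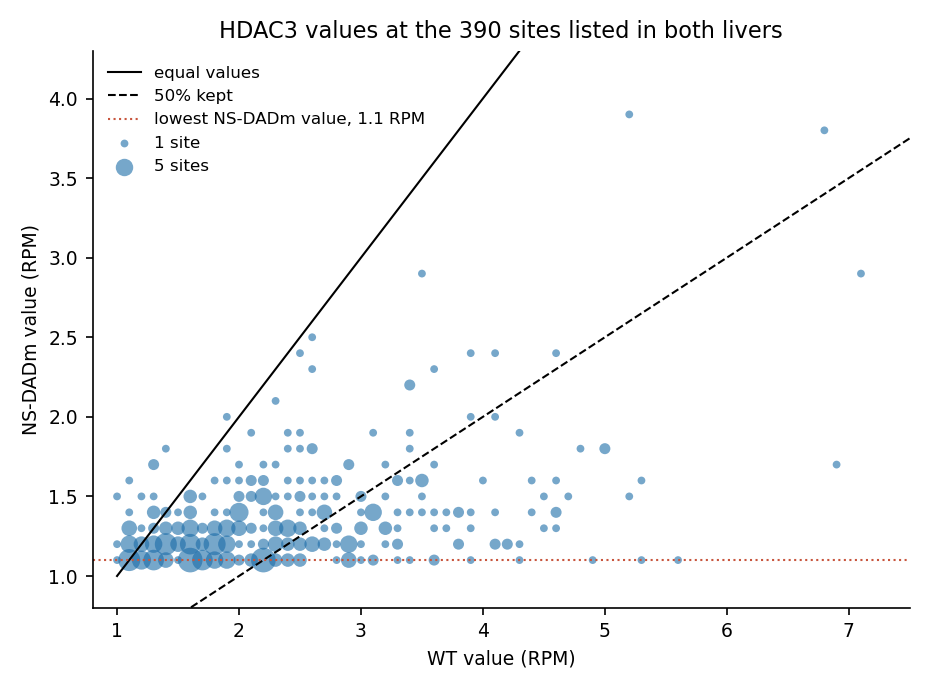
HDAC3 peak value in WT liver (x axis, RPM) against NS-DADm liver (y axis, RPM) at the 390 sites. Point area gives the number of sites with the same pair of values. At 323 sites the NS-DADm value is 1.5 RPM or less, and the 17 sites of 2.0 RPM or more have WT values of 1.9 to 7.1 RPM.

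The NS-DADm values crowded at the lower end of their list. At 95 sites the NS-DADm value was 1.1 RPM, the lowest value in that list, and at 183 sites (46.9%) it was 1.1 or 1.2 RPM. At 323 sites (82.8%) it was 1.5 RPM or less. The list held no lower value, which puts a floor under the kept share. The sites at exactly 1.1 RPM in NS-DADm spanned 1.0 to 5.6 RPM in WT, with a median of 1.8 RPM, so the same NS-DADm value stood beside both weak and strong WT peaks.

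The kept share was smaller where the WT value was higher, while the NS-DADm median went only from 1.2 to 1.5 RPM over the bands of WT value. Sites of 1.0 to 1.4 RPM in WT (72 sites) had a median kept share of 100%, where 1.1 RPM over their median WT value is already 84.6%. Sites of 1.5 to 1.9 RPM (88 sites) kept a median of 68.8% over a floor of 64.7%. In both weak bands the NS-DADm median was 1.2 RPM, 1 rounding step above the lowest listed value. Sites of 2.0 to 2.9 RPM (138 sites) kept a median of 54.8% over a floor of 45.8%. Sites of 3.0 to 3.9 RPM (59 sites) kept 42.9% over 32.4%. The 33 sites of 4.0 RPM or more kept 31.8% over 23.9%. In these bands the NS-DADm medians were 1.3, 1.4 and 1.5 RPM.

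**Figure D2:**
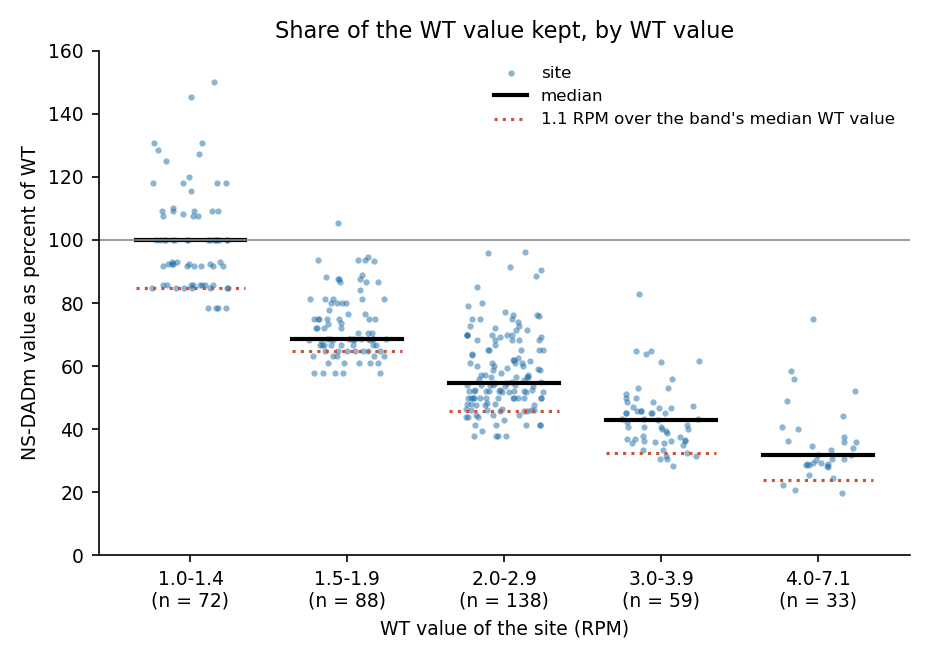
Kept share (y axis, NS-DADm value as percent of WT) by band of WT value (x axis, RPM). Points are sites, black bars medians, dotted bars 1.1 RPM divided by the median WT value of the band. Medians go from 100% in the weakest band to 31.8% in the strongest. They cannot fall below the dotted bars, since no listed NS-DADm value is under 1.1 RPM.

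WT peaks of the higher bands were more often listed in NS-DADm at all. It was 2.42% of 2969 peaks at 1.0 to 1.4 RPM, 5.47% of 1608 at 1.5 to 1.9 RPM and 15.2% of 907 at 2.0 to 2.9 RPM. It was 24.2% of 244 peaks at 3.0 to 3.9 RPM and 46.5% of 71 at 4.0 RPM or more (34.6 to 58.7%). A strong WT peak was thus more often listed and, where listed, kept a smaller part of its value. The first of these facts is part of how the sites were chosen, and the second follows in part from the floor.

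The 8 sites that kept least were strong WT peaks, and at 7 of them the NS-DADm value was 1.1 to 1.3 RPM. The smallest kept share was 19.6%, at chromosome 15, 100459891 to 100460090, where WT had 5.6 RPM and NS-DADm 1.1 RPM. At chromosome 10, 59180635 to 59180834, the values were 5.3 and 1.1 RPM (20.8%). At chromosome 3, 22127101 to 22127300, they were 4.9 and 1.1 RPM (22.4%). The last of these 3 had its NS-DADm peak 159 bp to the left, reaching over only 41 bp of it, between this WT peak and a weaker one of 1.9 RPM whose near edge lay 116 bp from the NS-DADm peak. At chromosome 13, 46031998 to 46032197, the second highest WT value among the sites, 6.9 RPM, stood against 1.7 RPM (24.6%). The next sites in order were at chromosome 9, 95390450 to 95390649 (4.3 and 1.1 RPM), and chromosome 1, 121121465 to 121121664 (4.3 and 1.2 RPM). Those at chromosome 5, 135317304 to 135317503 (3.9 and 1.1 RPM), and chromosome 18, 65348102 to 65348301 (4.6 and 1.3 RPM), completed the 8 lowest, with kept shares of 25.6 to 28.3%. Of these 8 sites, 7 had another WT peak within 10 kb, as did 23 of all 33 sites at 4.0 RPM or more in WT (69.7%, 95% interval 51.3 to 84.4%).

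The sites that kept most were weak in WT. The largest kept share was 150%, at chromosome 18, 39004859 to 39005058, where WT had 1.0 and NS-DADm 1.5 RPM. Rounding of both values alone allows 138 to 163% there. At chromosome 11, 69234965 to 69235164, the values were 1.1 and 1.6 RPM (145%). At chromosome 8, 74393705 to 74393904, and at chromosome 9, 106105824 to 106106023, both pairs were 1.3 and 1.7 RPM (131%), the latter with only 16 bp of overlap. At chromosome 13, 96956320 to 96956519, the values were 1.4 and 1.8 RPM (129%). The remaining 3 of the 8 highest had WT values of 1.0 to 1.2 RPM and NS-DADm values of 1.2 to 1.5 RPM. They lay at chromosome 7, 123253253 to 123253452 (127%), chromosome 13, 23738083 to 23738282 (125%), and chromosome 5, 122552662 to 122552861 (120%).

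Many sites with the higher value in NS-DADm were so weak in WT that no listed NS-DADm value could be lower. Of the 24, 14 had a WT value of 1.0 or 1.1 RPM, at or under the lowest NS-DADm value. At 11 of the 24 the difference was a single rounding step of 0.1 RPM, and at 13 the rounding ranges of both values were apart. The strongest WT peak among the 24 was at chromosome 4, 73722940 to 73723139, where WT had 1.9 and NS-DADm 2.0 RPM. Its nearest WT peak was about 1190 kb away.

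Among strong WT peaks a few sites kept most of their value. They were picked out after the values were seen, by the kept share at 3.0 RPM or more in WT. The site at chromosome 16, 45889628 to 45889827, went from 3.5 RPM in WT to 2.9 RPM in NS-DADm (82.9%). The site at chromosome 8, 13159030 to 13159229, had 5.2 and 3.9 RPM (75%), the highest NS-DADm value of all. Both stood alone in the WT list, with their nearest WT neighbours at 42.4 and 81.5 kb. At chromosome 8, 124449074 to 124449273, and at chromosome 14, 69071484 to 69071683, the values were 3.4 and 2.2 RPM (64.7% at both). At chromosome 17, 46198673 to 46198872, they were 3.6 and 2.3 RPM (63.9%). These 3 had WT neighbours at 7.21, 4.88 and 1.09 kb.

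The highest WT values among the sites met very different NS-DADm values. At chromosome 2, 25294710 to 25294909, 7.1 RPM in WT stood against 2.9 RPM (40.8%). At chromosome 17, 23891298 to 23891497, 6.8 RPM stood against 3.8 RPM (55.9%). The sites on chromosomes 13, 15 and 10 described above, of 6.9, 5.6 and 5.3 RPM, had only 1.7, 1.1 and 1.1 RPM. Of the 33 sites at 4.0 RPM or more in WT, 29 kept 50% or less. The other 4 were those on chromosomes 8 and 17 of 5.2 and 6.8 RPM, one at chromosome 12, 111039455 to 111039654 (4.6 and 2.4 RPM, 52.2%), and one at chromosome 6, 116173546 to 116173745 (4.1 and 2.4 RPM, 58.5%). All 4 of these had no other WT peak within 10 kb (95% interval 39.8 to 100%), against 6 of the 29 (20.7%, 7.99 to 39.7%). The share was 51.5% over all WT peaks and 40.4% of WT-only peaks at 3.0 RPM or more. This split was made after the values were seen, and the difference was not tested.

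The shared sites as a whole were spaced like other WT peaks of the same value. The median distance to the nearest other WT peak, edge to edge, was 7.25 kb for the 390 sites and 11.4 kb for the 5409 WT peaks without an NS-DADm peak. To compare at equal value, each 0.1 step of WT value among the WT-only peaks was weighted by how many sites it held. This covered 384 of the 390 sites, since 6 had no WT-only peak of the same value. The medians were then 7.32 kb (95% interval by ranks 5.69 to 9.18 kb) and 7.71 kb. The difference (-0.397 kb) is small beside that interval, and its direction turned when 50% reciprocal overlap was required (8.29 against 7.74 kb).

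The share of sites with another WT peak nearby gave the same picture at every distance. Within 10 kb, 219 of the 390 sites (56.2%) had another WT peak, where 48.5% of all WT peaks did. At equal value the shares were 56.0% (95% interval 50.9 to 61.0%) and 54.7%. Within 1 kb they were 19.5 and 18.7%, and within 50 kb 81.2 and 79.4%. The gap to all WT-only peaks (47.9% within 10 kb) was thus largely gone once WT values were made equal. At 7 distances from 1 to 500 kb the sites lay at most 2.16 percentage points above their equal-value reference. The site farthest from any other WT peak was at chromosome 5, 78206758 to 78206957 (2.7 RPM in WT, 1.4 RPM in NS-DADm), 2880 kb from the next.

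**Figure D3:**
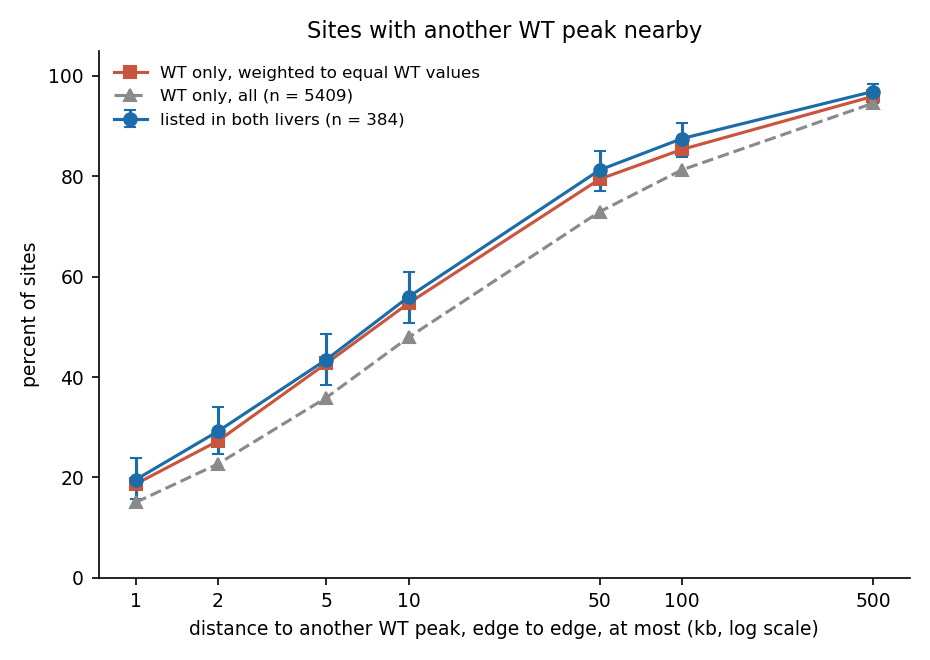
Percent of sites with another WT peak within a given distance (x axis, kb, log scale) for sites listed in both livers (circles, bars are 95% binomial intervals), WT-only peaks weighted to equal WT values (squares) and all WT-only peaks (triangles). Circles and squares nearly coincide, at 56.0 and 54.7% within 10 kb, while the triangles lie lower, at 47.9%.

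Rank within the neighbourhood was also much the same at equal WT value. No higher WT peak lay within 10 kb of 80.0% of the sites, where the figure for all WT peaks was 73.8%. At equal value it was 79.7% of the sites (95% interval 75.3 to 83.6%) and 81.2% of the WT-only peaks. The nearest WT peak within 10 kb had a median of 1.8 RPM beside a shared site and 1.7 RPM beside an equal-value WT-only peak, a single rounding step. The number that ends each peak's name and runs within its chromosome (its meaning is not given in the sources) had a median of 71 at the sites and 66 at equal-value WT-only peaks.

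The nearest WT peak was itself shared somewhat more often at shared sites than at equal-value WT-only peaks, but hardly so within 10 kb once doublets were set aside. It was shared at 41 sites (10.7% of those with an equal-value reference, 95% interval 7.77 to 14.2%), against 7.09% at equal-value WT-only peaks and 7.26% over all WT peaks. Part of this came from 3 NS-DADm peaks that each touched 2 neighbouring WT peaks. Without neighbours under the same NS-DADm peak the share was 9.11% (6.43 to 12.4%), an interval that includes 7.09%. Counting only nearest peaks within 10 kb and under another NS-DADm peak, the shares were 5.21 and 4.74%. Where the nearest WT peak lay beyond 10 kb it was shared at 8.93% of the sites (5.08 to 14.3%) and at 5.18% of equal-value WT-only peaks. The nearest other shared site lay at a median of 693 kb (460.4 to 866 kb) from a shared site and 1087 kb from an equal-value WT-only peak. The same double-touching peaks enter this distance, and the difference was not tested.

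The 3 NS-DADm peaks with a pair of WT peaks each lay at tight WT doublets. On chromosome 2 the WT peaks at 167468719 to 167468918 (1.8 RPM) and 167468883 to 167469082 (2.4 RPM) overlapped each other, and the NS-DADm peak of 1.6 RPM covered 179 bp of the weaker one and 15 bp of the stronger. On chromosome 11 the peaks at 60611896 to 60612095 (1.9 RPM) and 60612095 to 60612294 (2.3 RPM) met, and the NS-DADm peak of 1.2 RPM again lay mainly on the weaker, by 182 against 19 bp. On chromosome 6 the peaks at 66943037 to 66943236 (1.8 RPM) and 66943278 to 66943477 (1.1 RPM) were 41 bp apart, with an NS-DADm peak of 1.1 RPM between them. In all 3 doublets the NS-DADm peak shared more bases with the weaker WT peak.

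Most runs of WT peaks joined by gaps of at most 10 kb held no shared site, and those that did mostly held 1. There were 1146 such runs of 2 or more WT peaks, and 198 of them (17.3%) held at least 1 shared site. The share was higher in longer runs, from 12.1% of 796 runs of 2 peaks to 24.7% of 235 runs of 3 and 38.3% of 115 longer runs, which also offer more peaks. Exactly 1 peak was shared in 177 runs, 2 peaks in 21 and 3 or more in none. Among the 177, the shared peak was the highest of its run, or tied for it, in 117 (66.1%). This share of runs was not itself compared at equal WT value. A related share was, among peaks with another WT peak within 10 kb. There, no higher WT peak lay within 10 kb of 63.21% of the shared sites and 66.05% of equal-value WT-only peaks. Being the highest nearby was thus not more frequent at shared sites. In the other 60 of the 177 runs the shared peak was lower than the highest by a median of 0.5 RPM and by 2.0 RPM at most. That largest gap was on chromosome 11, where a WT peak of 1.4 RPM at 101172095 to 101172294 was listed in NS-DADm with 1.2 RPM and the highest peak of the same run, 3.4 RPM at 101183661 to 101183860 and 11.4 kb away, was not.

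In runs with a pair of shared sites, the order of the WT values was kept in NS-DADm about as often as it was turned. Leaving out the 3 doublets above, 18 runs had 2 sites under different NS-DADm peaks. The site with the higher WT value also had the higher NS-DADm value in 7 runs, the lower one in 8 and an equal one in 3. In 1 of the 7 and 4 of the 8 the NS-DADm values differed by a single rounding step, and with these left out the order was kept in 6 runs and turned in 4. In 1 of these 4, on chromosome 8 at 73122293 to 73126859, the WT values themselves were a single step apart, at 2.6 and 2.7 RPM. The pair with the highest summed WT value, chosen among the 21 tied runs for that reason, lay in a run of 5 WT peaks on chromosome 4, 132824198 to 132841692. Its sites had 4.3 and 1.9 RPM (132825168 to 132825367) and 4.7 and 1.5 RPM (132829548 to 132829747), and the 3 unlisted neighbours had 2.1 to 2.4 RPM in WT. On chromosome 5 the 2 sites of a run had 3.9 and 1.1 RPM (135317304 to 135317503) and 3.4 and 1.8 RPM (135320663 to 135320862). There the weaker WT peak kept 52.9% and the stronger 28.2%.

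**Figure D4:**
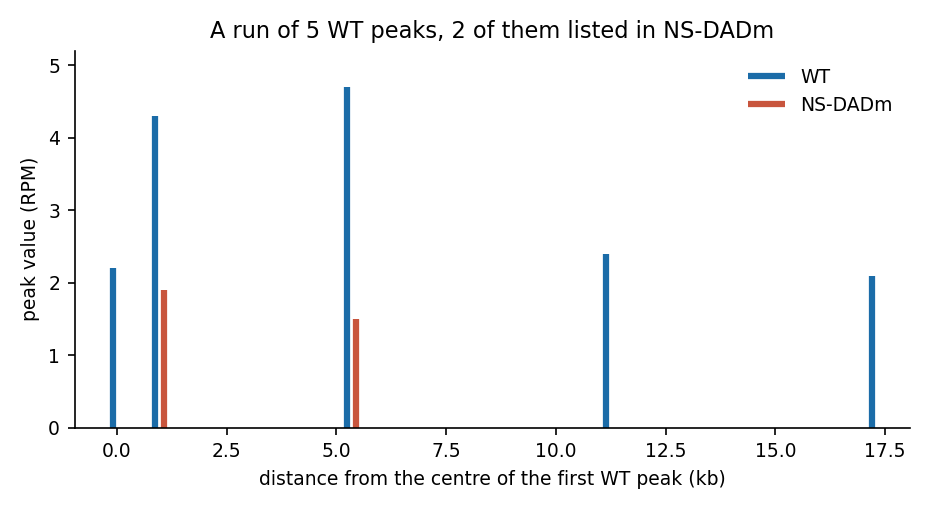
Peak values (y axis, RPM) along the run of 5 WT peaks on chromosome 4 (x axis, kb from the centre of the first WT peak). Blue bars are WT and red bars NS-DADm, drawn side by side at each site. The WT peaks of 4.3 and 4.7 RPM are listed in NS-DADm with 1.9 and 1.5 RPM, and the 3 others are not listed.

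The few sites with a high NS-DADm value more often had no WT neighbour than other sites of the same WT value. This was seen in the data, was not planned and was not tested. Of the 43 sites at 1.7 RPM or more in NS-DADm, 26 (60.5%, 95% interval 44.4 to 75%) had no other WT peak within 10 kb, against 145 of the other 347 (41.8%, 36.5 to 47.2%). They were also stronger in WT, with a median of 3.1 RPM against 2.1 RPM, and of all sites at 3.0 RPM or more in WT 35.9% had no WT peak within 10 kb. At equal WT value the shares were 64.9% of 37 sites and 30.2% of the other shared sites, and 64.1% of 39 sites and 46.6% of WT-only peaks. The limit of 1.7 RPM was chosen after seeing the values. With a limit of 1.5 RPM the difference at equal value shrank from 34.7 to 13.9 percentage points (47.1 against 33.3%), and with 2.0 RPM it was 39.8 points. Counting neighbours within 2 kb alone gave 15.2 points. Below 1.7 RPM there was no ordered change, with 45.3, 47.7, 37.3 and 35.2% of the sites isolated at 1.1, 1.2, 1.3 to 1.4 and 1.5 to 1.6 RPM. At equal WT value the shares just below the limit were under their reference, 38.0 against 49.2% at 1.3 to 1.4 RPM and 34.6 against 44.1% at 1.5 to 1.6 RPM.

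The 17 sites at 2.0 RPM or more in NS-DADm had WT values of 1.9 to 7.1 RPM and kept a median of 64.7%. No other WT peak lay within 10 kb of 11 of them (64.7%), against 43.8% of all 390 sites and 51.5% of all WT peaks. The highest WT peak within 10 kb was the site itself at 16 of them (94.1%), as at 88 of the 92 sites of 3.0 RPM or more in WT (95.7%). The value was lower in NS-DADm at 16 of the 17, the exception being the chromosome 4 site of 1.9 and 2.0 RPM. Besides the sites named above, the 5 highest NS-DADm values included the site at chromosome 4, 136320831 to 136321030 (2.6 and 2.5 RPM), whose nearest WT neighbour was 432 kb away. The site at chromosome 10, 126466263 to 126466462, with 2.5 and 2.4 RPM, had its neighbour at 104 kb. Among the sites at 3.0 RPM or more in WT, 10 of the 16 that kept 50% or more had no WT peak within 10 kb (62.5%, 35.4 to 84.8%), against 23 of the 76 that kept less (30.3%, 20.2 to 41.9%). These intervals overlap, and the difference was not tested.

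The paired peaks were closest together where NS-DADm was high. The centres of the paired WT and NS-DADm peaks were a median of 39 bp apart over all sites (95% interval by ranks 35 to 45 bp), and 29 bp when 50% reciprocal overlap was required, which removes the far pairs. Neither side was favoured, with the NS-DADm centre at the higher coordinate at 180 sites, at the lower at 204 and in the same place at 6. The median distance was 48 bp at sites of 1.1 RPM in NS-DADm, 21.5 bp at 1.7 to 1.9 RPM (26 sites) and 12 bp at 2.0 RPM or more (17 sites). At equal WT value the other shared sites had 41, 48 and 27 bp. The bands between showed no ordered change, with 38.5, 38 and 45 bp at 1.2, 1.3 to 1.4 and 1.5 to 1.6 RPM. Their references were 39, 37 and 46 bp. These differences were not tested. Distance between centres went with little change in the kept share: 61.2% at 0 to 24 bp, 66.7% at 25 to 49 bp, 64.7% at 50 to 99 bp and 57.9% at 100 bp or more.

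**Figure D5:**
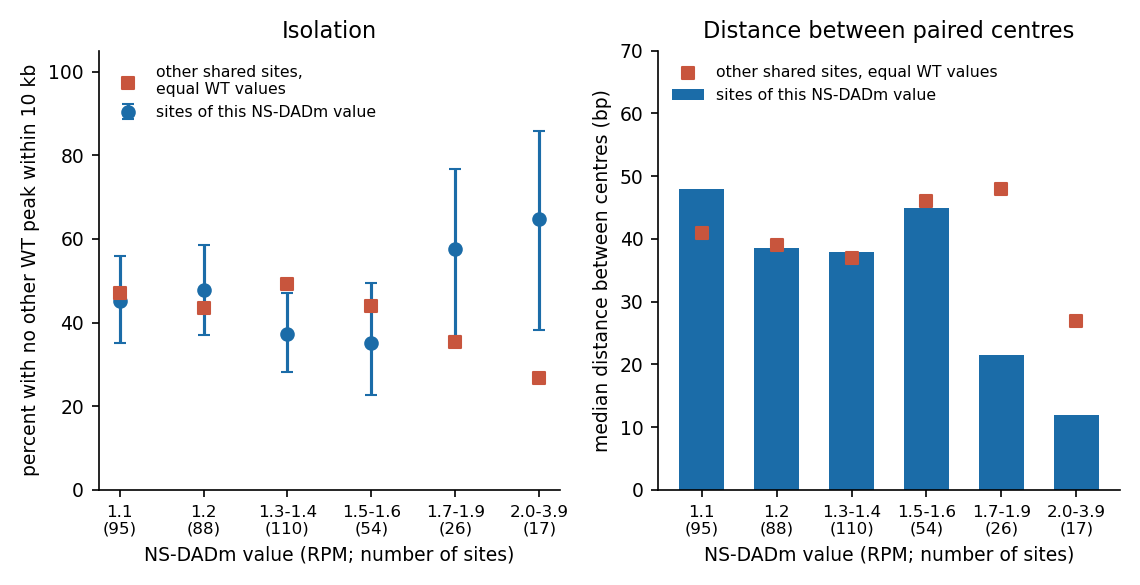
Left, percent of shared sites with no other WT peak within 10 kb (circles, bars are 95% binomial intervals) by NS-DADm value (x axis, RPM, number of sites in brackets), beside the other shared sites weighted to equal WT values (squares). Right, median distance between the paired centres (bars, bp) with the same reference. Sites of 2.0 RPM or more have 64.7% isolated and a median distance of 12 bp.

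Near the 1 bp limit the choice of sites was a matter of a few bases. The smallest overlaps were 4 bp at chromosome 9, 45966772 to 45966971 (3.1 and 1.4 RPM), 14 bp at chromosome 11, 51611806 to 51612005 (2.2 and 1.1 RPM), and the 15 bp of the chromosome 2 doublet. Just outside were the WT peaks at chromosome 15, 38376282 to 38376481 (3.6 RPM), with an NS-DADm peak of 1.2 RPM 6 bp away, at chromosome 6, 29217018 to 29217217 (1.9 RPM), with one of 1.1 RPM 14 bp away, and at chromosome 2, 143700947 to 143701146 (2.3 RPM), with one of 1.4 RPM 29 bp away. The WT peaks named here on both sides of the limit had values of similar size. Near misses farther out included WT peaks of 1.0 to 1.2 RPM, where no site with under 50 bp of overlap was below 1.3 RPM in WT. This difference was not tested. Overlaps under 50 bp were found at 20 sites and of 150 bp or more at 230, and 23 WT peaks missed an NS-DADm peak by at most 200 bp. At a number of the 23 that NS-DADm peak overlapped another WT peak, as at chromosome 11, 31724666 to 31724865. Such WT peaks were neighbours of a shared site.

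The sites were spread over the chromosomes, with 8 on chromosome 18 to 34 on chromosome 4 and none on X, where 16 WT peaks were listed. The median kept share ran from 50% on chromosomes 10 and 15 to 78.0% on chromosome 18, whose sites had a lower WT median (1.8 RPM) than those of chromosomes 10 and 15 (2.5 and 2.3 RPM). NS-DADm medians ran from 1.2 to 1.55 RPM. The highest WT peak of the chromosome was a shared site on 8 of the 20 chromosomes.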

How the data were processed

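For each genotype the authors deposited 1 list of peak positions, names and values. The value is taken as RPM because the deposited files are named for a limit of 1 RPM and their lowest values are 1.0 (WT) and 1.1 RPM (NS-DADm). The files define no unit. HOMER and mm8 are named in the submitters' processing notes. For aligner, peak settings and use of input: not given in the sources used here.

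Every deposited peak entered, with no filter. WT peaks overlapping an NS-DADm peak by 1 bp were paired with the nearest centre. Distances between peaks are edge to edge. For comparisons at equal value, WT-only peaks were weighted per 0.1 RPM step to the number of sites there, with no random draw and no test. Intervals are 95%, Clopper-Pearson for shares and binomial ranks for medians. Alternatives covered overlap, pairing, thresholds, chromosomes, matching, distance, merging and rounding.

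Named sites followed a rule: the 8 largest and 8 smallest kept shares, the 5 highest values per liver, doublets, the smallest overlaps and nearest misses, extremes of spacing, and the run with most sites. Others were picked after seeing values, as said beside them, and so were the highest gap within a run, the chromosome 5 run and the sites on chromosomes 6, 10 and 12. Sites and comparisons were chosen with earlier results of these data known. Python 3.11.15, numpy 2.4.6, pandas 2.3.3, scipy 1.17.1 and matplotlib 3.10.9 were used, and the overlap, spacing and weighting steps were tested on simulated data.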

Additional observations from a re-analysis of the deposited data

How the results depend on the processing

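Over 9 results and 61 alternatives, 51 values stayed within 1.5 times a count or within the 95% interval over sites, 10 moved beyond it and 0 changed sign against an interval that left out zero. Such a change of sign could be counted only for the shared nearest peak and for isolation at high NS-DADm values. The spacing difference did change sign inside its interval, from -0.397 to 0.545 kb at 50% reciprocal overlap. The number of shared sites ran from 282 to 413. The median kept share was 59.0% with WT values 0.05 RPM higher and NS-DADm values 0.05 RPM lower, and 67.2% the other way round, as rounding allows. Without matching on WT value, the sites were 4.20 kb nearer to a WT peak than all WT-only peaks were (difference -4.20 kb). They were also 8.23 points more often within 10 kb of one, 6.64 points more often the highest within 10 kb and beside a peak 0.3 RPM higher. When gaps up to 200 bp counted as overlap, the nearest WT peak was shared 10.5 points more often than at equal value, since 1 NS-DADm peak then reaches more WT peaks. The median centre distance was 29 bp at 50% reciprocal overlap, by construction. Isolation of the sites with high NS-DADm values differed by 15.2 points at 2 kb and by 13.9 points with a limit of 1.5 RPM; the cause was not tested. The alternatives for the last 2 results, for rank and for the neighbour's value were chosen after seeing the data. No paired analysis was possible because each genotype has 1 library. Unknown depth leaves single values near 1.1 RPM without an error.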
